A study of Mus musculus with 8 samples.

Results

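Lhx2, Otx2, Otx1, Emx2, Emx1, Six3, Dmrta2 and Hesx1 are transcription factor genes that give the front of the embryonic brain its identity. They were followed here in neural progenitor cultures in which Bcl6 was switched on. Markers of pluripotent and other cell types were also present in all libraries. The 8 genes were chosen by symbol, and 6 of the 8 had a line among the 14954 genes of the table. Emx1 and Hesx1 had no line under their symbol or their Ensembl identifier and were not analysed here. Of the 6 measured genes, Lhx2 rose 2.16-fold, Otx2 fell to 0.737 times its control level, and the other 4 did not pass the test.

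The cells were progenitor cultures made from mouse embryonic stem cells of the line A2lox.Cre Bcl6, in which a tetracycline-inducible promoter drives a Bcl6 transgene. The Bcl6-induced group held 4 cultures given 1 µg/ml doxycycline for 24 h, and the control group held 4 cultures of the same line given DMSO, all at differentiation day 12. All 8 cultures had been exposed to 400 ng/ml cyclopamine, a hedgehog pathway inhibitor, and the stem cells had been grown on irradiated mouse embryonic fibroblasts before differentiation. Every culture came from 1 engineered line, and none received doxycycline without carrying the transgene, so the effects of Bcl6 and of doxycycline cannot be told apart. The labels number the differentiations 1 to 4 in each group but do not say how independent they were, and p-values therefore cover only the spread among these 8 libraries.

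The anterior neural plate is divided into forebrain, eye field and midbrain by overlapping domains of such factors. Otx2 and Otx1 are homeobox genes of the forebrain and midbrain, and Otx2 is also active in the epiblast before neural tissue forms. Lhx2 is a LIM-homeobox gene that gives the cortical primordium its identity and is needed for eye formation. Emx2 and Emx1 are homeobox genes of the dorsal telencephalon, and Emx2 and Dmrta2, a doublesex-related gene, promote caudal and medial cortical fates. Six3 and Hesx1 act at the most anterior end, where Six3 represses Wnt signalling. Bcl6 represses transcription in B cells of the germinal centre and promotes neuron formation in the cortex.

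The 6 measured genes lie on different chromosomes. In build mm10, Lhx2 spans chr2:38339281-38369733 on the plus strand and Otx2 spans chr14:48657677-48673819 on the minus strand. Otx1 lies at chr11:21994764-22002897 on the minus strand, Emx2 at chr19:59458372-59465357 on the plus strand, Six3 at chr17:85613608-85629302 on the plus strand, and Dmrta2 at chr4:109978053-109983687 on the plus strand.

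Promoter windows are shown for the 2 genes that passed the test, as the 250 bases before a transcript start in RefSeq (GRCm38.p6). The letters TTCNNNGAA, the core of the sequence that Bcl6 binds and the same on both strands, were searched for in the windows. Windows were read for 7 of the 8 genes, all but Otx1, and 1 of their 11 windows held these letters, against 7.0% of all 32851 windows. That window lies before the third of 4 listed Otx2 starts, chr14:48665110-48665359 on the minus strand, and its match is in capitals, beginning 113 bases before the start. The window before the first of 2 listed Lhx2 starts, chr2:38339031-38339280 on the plus strand, held no match and had a GC content of 72.8%, against a median of 52.4% over all windows. Both are written 5′ to 3′.
Otx2 start 3: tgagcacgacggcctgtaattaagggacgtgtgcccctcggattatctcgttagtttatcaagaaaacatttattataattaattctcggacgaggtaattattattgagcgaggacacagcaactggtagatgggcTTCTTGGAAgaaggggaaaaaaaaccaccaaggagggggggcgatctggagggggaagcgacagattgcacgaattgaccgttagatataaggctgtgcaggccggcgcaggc
Lhx2 start 1: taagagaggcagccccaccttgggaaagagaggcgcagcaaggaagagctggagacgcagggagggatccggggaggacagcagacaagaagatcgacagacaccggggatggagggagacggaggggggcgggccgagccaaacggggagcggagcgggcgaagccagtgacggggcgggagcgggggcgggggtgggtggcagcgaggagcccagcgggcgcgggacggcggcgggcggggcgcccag
A match of letters is a description of the window, and binding was not measured in these libraries.

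The libraries held 10.33 M to 15.02 M reads in the Bcl6-induced group and 9.42 M to 9.74 M in the control group, as recovered from the deposited values, so every control was shallower than every induced library. Bcl6 itself had 393, 422, 427 and 325 CPM (the deposited value as its library's parts per 1000000) in Bcl6-induced libraries 1 to 4, against 6.61, 6.01, 7.12 and 6.21 CPM in control libraries 1 to 4. It was 59.7-fold higher in induced libraries (log2 fold change 5.90 ± 0.10 SE, adjusted p = 6.8e-11, limma with Benjamini-Hochberg adjustment over all 14954 genes). Control 1 stood apart from the other controls by a trend with transcript length. Its median log2 deviation from the control mean was -0.35 in the longest 10% of genes and 0.30 in the shortest 10%, against -0.16 to 0.20 in the other 3 controls, so values without it are given where they matter. Calls were made at an adjusted p under 0.05.

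Otx2 was by far the most abundant of the measured factors and fell in every induced library. Its level was 162, 168, 156 and 157 CPM in Bcl6-induced libraries 1 to 4, against 233, 220, 224 and 198 CPM in control libraries 1 to 4. All 4 induced libraries were below all 4 controls, and the induced libraries were close to one another. The means were 161 ± 5.10 CPM in Bcl6-induced and 218 ± 14.7 CPM in control libraries (SD, n = 4 each). The log2 fold change was -0.44 ± 0.07 (SE), with a 95% interval of -0.59 to -0.29 and an adjusted p of 0.0055 (limma, Benjamini-Hochberg). The values rest on 1626 to 2428 reads per induced library and 1889 to 2191 per control library. Without control 1 the log2 fold change was -0.41 (adjusted p = 0.0028, limma). In a bulk sample, fewer cells expressing Otx2 and less Otx2 RNA per cell cannot be told apart.

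Otx1, the close relative of Otx2, varied too much among induced libraries to be called. It had 9.82, 8.17, 15.4 and 19.0 CPM in Bcl6-induced libraries 1 to 4, against 17.3, 16, 16.8 and 19.5 CPM in control libraries 1 to 4. Induced libraries 1 and 2 were below every control, induced library 3 was just below them and induced library 4 was inside their range, so the groups overlapped. The log2 fold change was -0.48 ± 0.23 (SE), with a 95% interval of -0.99 to 0.02 and an adjusted p of 0.23 (limma, Benjamini-Hochberg). With all 8 libraries the estimate was near that of Otx2, but its interval was much wider, and leaving out 1 library gave -0.69 (without induced library 4) to -0.29 (without induced library 2). The SD was 4.68 times the counting error in induced libraries and 1.11 times in controls, so the spread in the induced group was beyond the sampling of reads. The difference between the changes of Otx1 and Otx2 was not tested.

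**Figure D1:**
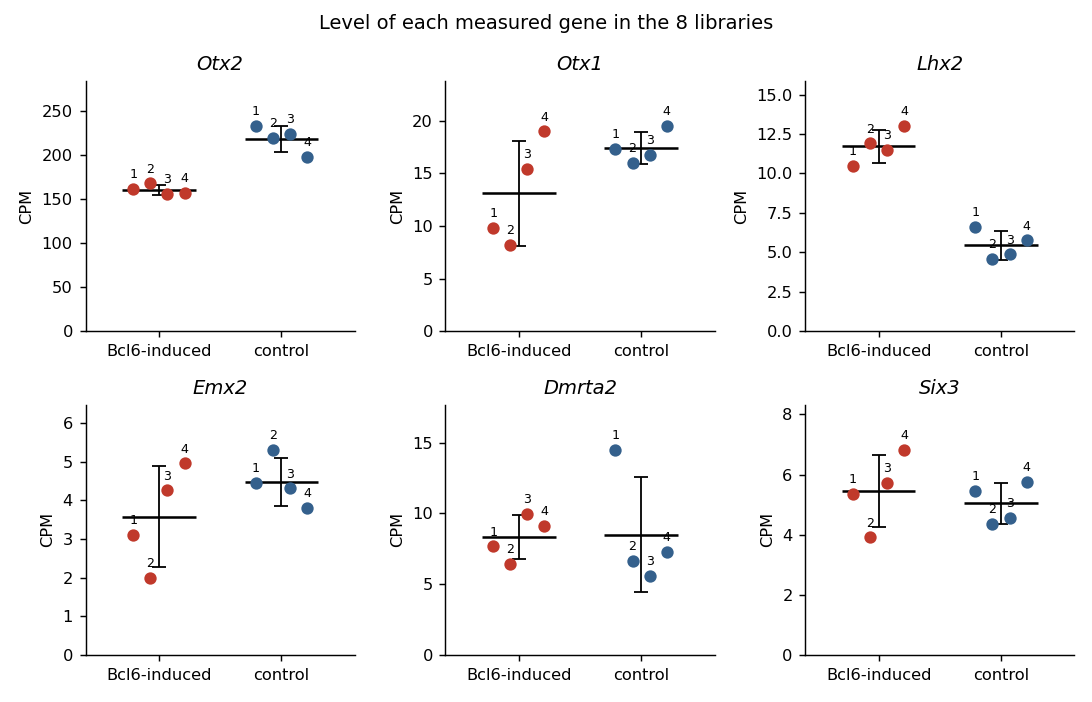
Level of each measured gene in CPM (vertical axes, each starting at 0) in the Bcl6-induced libraries (left) and control libraries (right). Points are libraries with their number, and bars are the mean ± SD (n = 4). Otx2 sits lower and Lhx2 higher in all 4 induced libraries, Otx1 and Emx2 spread widely among induced libraries, and Dmrta2 has 1 high control.

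Lhx2, the cortical selector gene, was the measured factor that rose. Its level was 10.5, 11.9, 11.5 and 13 CPM in Bcl6-induced libraries 1 to 4, against 6.61, 4.56, 4.87 and 5.76 CPM in control libraries 1 to 4. The lowest induced library was above the highest control. The means were 11.7 ± 1.01 CPM in Bcl6-induced and 5.45 ± 0.929 CPM in control libraries (SD, n = 4 each). The log2 fold change was 1.11 ± 0.15 (SE), with a 95% interval of 0.79 to 1.43, a fold of 2.16 and an adjusted p of 0.0028 (limma, Benjamini-Hochberg). Of all 14954 genes, 98.9% had a smaller absolute log2 fold change. Lhx2 is a gene of few reads, with 130 to 158 in induced libraries and 43 to 62 in controls, and the spread in each group was close to the counting error (1.01 times it in induced and 1.23 times in control libraries). Without control 1, its highest control, the log2 fold change was 1.21 (adjusted p = 0.0011, limma).

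Emx2, a dorsal telencephalic homeobox gene, was not called. Its level was 3.11, 2.00, 4.26 and 4.96 CPM in Bcl6-induced libraries 1 to 4, against 4.46, 5.31, 4.31 and 3.81 CPM in control libraries 1 to 4. Induced libraries 1 and 2 were below every control, as for Otx1, while induced libraries 3 and 4 lay among or near the controls. The log2 fold change was -0.38 ± 0.26 (SE), with a 95% interval of -0.96 to 0.19 and an adjusted p of 0.4 (limma, Benjamini-Hochberg). Emx2 had 22 to 51 reads in induced and 36 to 50 in control libraries, and its SD was 2.34 times the counting error in induced libraries and 0.913 times in controls. Leaving out 1 library gave -0.57 to -0.14, with the smallest change without induced library 2.

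Dmrta2, which promotes medial cortical fates, was not called and owed most of its spread to 1 control. It had 7.67, 6.46, 9.97 and 9.12 CPM in Bcl6-induced libraries 1 to 4, against 14.5, 6.66, 5.57 and 7.27 CPM in control libraries 1 to 4. Control 1 was the highest of all 8 libraries and stood 1.16 above the mean of the other controls on the log2 scale. The log2 fold change was 0.05 ± 0.27 (SE), with a 95% interval of -0.54 to 0.64 and an adjusted p of 0.93, against 0.34 and an adjusted p of 0.23 without control 1 (limma, Benjamini-Hochberg). Over all alternatives its adjusted p was 0.23 to 1 and its sign changed, so no direction could be given.

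Six3, the Wnt repressor of the anterior neural plate, was the least abundant of the measured factors per kilobase and was not called. It had 5.36, 3.91, 5.71 and 6.82 CPM in Bcl6-induced libraries 1 to 4, against 5.46, 4.36, 4.57 and 5.76 CPM in control libraries 1 to 4. The groups overlapped over most of their range. The log2 fold change was 0.09 ± 0.19 (SE), with a 95% interval of -0.32 to 0.51 and an adjusted p of 0.8 (limma, Benjamini-Hochberg), so a change of up to 1.42-fold upward or to 0.801 times lay inside the interval.

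**Figure D2:**
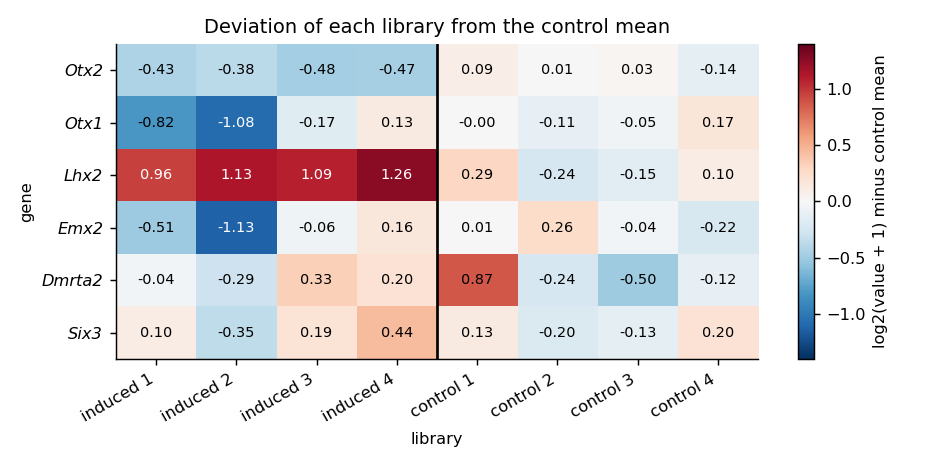
Log2(value + 1) of each gene in each library minus the control mean of that gene (colour scale and printed values), with the Bcl6-induced libraries left of the line and controls right. Lhx2 is between 0.96 and 1.26 in all 4 induced libraries and Otx2 between -0.48 and -0.38. Otx1 and Emx2 are lowest in induced libraries 1 and 2.

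Among the 6 measured genes, 1 was called higher and 1 lower, against a background of 4.55% of all 14954 genes called higher and 2.26% called lower, or 6.81% in all. The median log2 fold change of the 6 was -0.17, and that of all genes was 0.03. The groups did not overlap for 2 of the 6 genes, 1 in each direction, against 17.1% of all genes, 10.8% with higher and 6.32% with lower induced libraries. Lhx2 and Otx2 were called in all 8 settings that left out 1 library and in all 8 other settings, over which the log2 fold change was 1.03 to 1.21 for Lhx2 and -0.49 to -0.38 for Otx2. Their adjusted p-values (limma) were between 0.00035 and 0.015 for Lhx2 and between 0.0013 and 0.027 for Otx2. No setting called Otx1, Dmrta2, Six3 or Emx2, the last of which was not tested under a minimum mean of 100 scaled reads. Otx1 came nearest, at an adjusted p of 0.06 when libraries were weighted by their quality (limma array weights), within a range of 0.06 to 0.48.

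**Figure D3:**
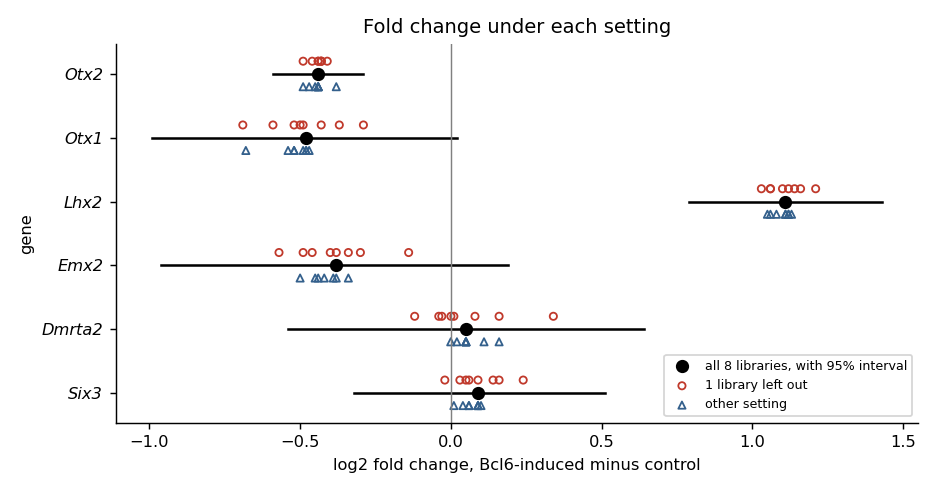
Log2 fold change (Bcl6-induced minus control, horizontal axis) of each gene. Black points and lines are the estimate from all 8 libraries with its 95% interval, red circles leave out 1 library each, and blue triangles are the other settings. Lhx2 (1.03 to 1.21) and Otx2 (-0.49 to -0.38) lie clear of 0 throughout, while Dmrta2 and Six3 lie on both sides of it.

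Levels were compared between genes per kilobase of summed exon length (CPM per kb), since the genes differ in length. Otx2 stood at 38.1 ± 1.21 CPM per kb in Bcl6-induced and 51.8 ± 3.49 in control libraries (SD, n = 4 each), higher than 92.5% of the 14924 genes with a length. All other measured factors were far lower. In controls the order below Otx2 was Otx1 (3.21 ± 0.275 CPM per kb), Dmrta2 (2.91 ± 1.39), Emx2 (1.49 ± 0.208), Lhx2 (1.24 ± 0.211) and Six3 (0.925 ± 0.125). Otx1 and Dmrta2 did not differ beyond their spread there, nor did Emx2 and Lhx2. In induced libraries Dmrta2 (2.84 ± 0.532), Lhx2 (2.67 ± 0.231) and Otx1 (2.42 ± 0.924) did not differ beyond their spread, and Emx2 (1.19 ± 0.433) and Six3 (1.00 ± 0.220) were lowest. Lhx2 thus stood with Otx1 and Dmrta2 in induced libraries, whereas it stood with Emx2 in controls. The share of Lhx2 in the summed level of the 6 genes was 5.53% in Bcl6-induced and 2.02% in control libraries, and that of Otx2 was 79.1% and 84.1%. The ratio of Lhx2 to Emx2 (CPM per kb) was 2.31, 4.05, 1.85 and 1.79 in Bcl6-induced libraries 1 to 4, against 1.01, 0.587, 0.771 and 1.03 in control libraries 1 to 4.

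Transcripts of the opposite strand overlap exons of Otx2, Six3 and Emx2, and whether counting used the strand is not given in the sources used here, so reads of such partners cannot be told apart. Otx2os1 was listed at 1.37 ± 0.372 CPM in Bcl6-induced and 1.57 ± 1.12 CPM in control libraries (SD, n = 4 each), far under Otx2. Six3os1 was higher than Six3 in CPM, a measure not corrected for length. It had 7.74 ± 1.71 CPM in Bcl6-induced and 9.26 ± 2.03 CPM in control libraries (SD, n = 4 each). Six3os1 was not called (log2 fold change -0.26 ± 0.19 SE, adjusted p = 0.45, limma). The Six3 level is therefore uncertain. Emx2os had no line and was not analysed here, nor was Gm28528, which overlaps exons of Six3 on the opposite strand and also had no line. The same holds for Gm49154, which overlaps exons of Otx2 on the same strand as Otx2.

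The genes whose profiles were most like those of Lhx2 and Otx2 were found by the root-mean-square difference of log2(value + 1), each centred on its own mean, over the 8 libraries and 13120 genes. For Lhx2, whose own profile had a root-mean-square of 0.58, these were Crabp1 (difference 0.13), a retinoic acid-binding protein gene, Pkdcc (0.16), a secreted tyrosine kinase gene, and Tubb3 (0.17), a tubulin gene of young neurons. Crabp1 averaged 80.8 ± 6.85 CPM in Bcl6-induced and 40.5 ± 8.34 CPM in control libraries, and Pkdcc 73.8 ± 3.36 CPM in Bcl6-induced and 35.6 ± 5.02 CPM in control libraries (SD, n = 4 each). For Otx2, with a root-mean-square of 0.23, they were Tdgf1 (0.06), a Nodal co-receptor gene of the epiblast, Cyp39a1 (0.07), an oxysterol hydroxylase gene, and Elovl5 (0.07), a fatty acid elongase gene. Cyp39a1 averaged 18.2 ± 0.728 CPM in Bcl6-induced and 24.2 ± 1.71 CPM in control libraries, and Elovl5 170 ± 9.52 CPM in Bcl6-induced and 219 ± 15.7 CPM in control libraries (SD, n = 4 each). These lists are a description of 8 libraries that fall into 2 groups, so any gene with the same step between the groups lies near.

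**Figure D4:**
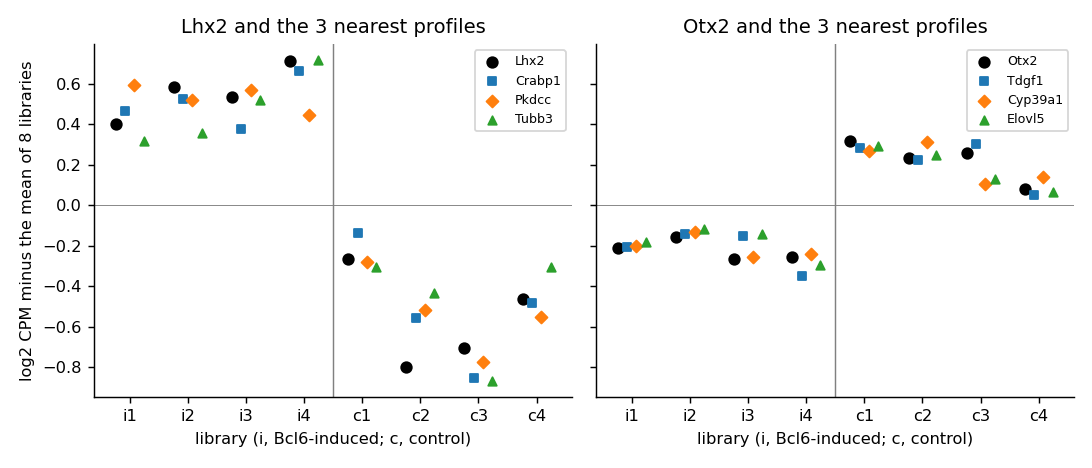
Log2 CPM of Lhx2 (left panel) and Otx2 (right panel) and of the 3 genes with the nearest profiles, minus each gene's mean over 8 libraries (vertical axis). Libraries run along the horizontal axis, Bcl6-induced left of the line and control right, and each gene has its own marker. The Lhx2 group lies above 0 in all induced libraries and below 0 in all controls, and the Otx2 group the reverse.

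Other regional identity genes were read from the same fit, by lists written with earlier results of these data known. Of the dorsal telencephalon list, 14 of 15 genes had a line and none was called by limma. Of these, 3 had an unadjusted p under 0.05 (limma), all of them lower, against 3547 of all 14954 genes. The median log2 fold change of the list was -0.06. Gli3, a hedgehog pathway repressor and the list's highest gene, had 68.7 ± 16.7 CPM in Bcl6-induced and 71.3 ± 15.1 CPM in control libraries (SD, n = 4 each). The sum of the list was 227, 213, 287 and 320 CPM in Bcl6-induced libraries 1 to 4, against 286, 285, 292 and 330 CPM in control libraries 1 to 4, so induced libraries 1 and 2 were low here as they were for Otx1 and Emx2. Of the ventral telencephalon list, 9 of 12 genes had a line and none was called by limma. Of these, 5 had an unadjusted p under 0.05 (limma), against 3547 of all 14954 genes. Dlx1, Dlx5 and Isl1 were higher, Nkx2-1 and Lhx6 were lower, and the list median was 0.34.

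The diencephalon list had calls in both directions, with 3 of its 13 genes higher and 3 lower and a median of -0.19. Lhx9, the closest relative of Lhx2, rose to 12.7 ± 2.14 CPM in Bcl6-induced, against 5.94 ± 0.879 CPM in control libraries (SD, n = 4 each; log2 fold change 1.08 ± 0.16 SE, adjusted p = 0.0043, limma), and was called in every setting. Lhx1, a LIM-homeobox gene, rose to 22.4 ± 4.23 CPM in Bcl6-induced, against 14.4 ± 1.09 CPM in control libraries (adjusted p = 0.023, limma). Barhl1, another homeobox gene, rose to 3.51 ± 0.505 CPM in Bcl6-induced, against 1.82 ± 0.422 CPM in control libraries (adjusted p = 0.028, limma). Irx2, a homeobox gene of the Iroquois family, fell to 15.7 ± 2.98 CPM in Bcl6-induced, against 24.1 ± 1.53 CPM in control libraries (adjusted p = 0.02, limma). Its relative Irx3 fell to 9.86 ± 4.11 CPM in Bcl6-induced, against 21.6 ± 6.03 CPM in control libraries (adjusted p = 0.037, limma). Zic1, a zinc finger gene and the highest of the list, fell to 76.7 ± 4.78 CPM in Bcl6-induced, against 93.9 ± 6.74 CPM in control libraries (adjusted p = 0.049, limma). Of these 6 genes, each but Lhx9 lost its call when induced library 1 or control 2 was left out, and leaving out control 2 left 1 call in the list, that of Lhx9.

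The eye field and hypothalamus list had 8 of 12 genes with a line, of which 2 were called higher and none lower, with a median of 0.43. Rax, Six6, Vax1 and Nkx2-4 had no line and were not analysed here. The log2 fold change was positive for 6 of the 8 genes and negative for 2. Nkx2-2 was 1 of these 2, at -0.73 ± 0.24 (SE, adjusted p = 0.1, limma), and was not called. Otp, a hypothalamic homeobox gene, rose to 5.98 ± 0.691 CPM in Bcl6-induced, against 2.74 ± 1.08 CPM in control libraries (adjusted p = 0.023, limma). Tbx3, a T-box gene placed in this list, rose to 21.4 ± 1.57 CPM in Bcl6-induced, against 14.1 ± 3.5 CPM in control libraries (adjusted p = 0.04, limma). Both calls were lost without induced library 1, 2 or 3 or control 2. Of the midbrain and hindbrain list, 12 of 14 genes had a line and none was called by limma. Of these, 6 had an unadjusted p under 0.05 (limma), in both directions, against 3547 of all 14954 genes. The median of the list was -0.18. Wnt1, its highest gene, had 16.9 ± 4.03 CPM in Bcl6-induced and 22.4 ± 3.82 CPM in control libraries (SD, n = 4 each).

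At the opposite end of the body axis, 5 of 14 genes of the posterior list had a line, 3 of them called higher and none lower, with a median of 1.53. T, the brachyury gene of the primitive streak and tail bud, rose to 59.9 ± 2.29 CPM in Bcl6-induced, against 20.9 ± 3.13 CPM in control libraries (log2 fold change 1.53 ± 0.11 SE, adjusted p = 0.00011, limma). Cdx2, a caudal homeobox gene, rose to 9.48 ± 1.80 CPM in Bcl6-induced, against 1.30 ± 0.572 CPM in control libraries (adjusted p = 0.0022, limma). Hoxd9 rose to 4.45 ± 1.31 CPM in Bcl6-induced, against 1.5 ± 0.882 CPM in control libraries (adjusted p = 0.024, limma), with groups that overlapped and a call lost without induced library 1, 2 or 3 or without control 2 or 4. The other 2 measured genes of the list were not called. Tbx6 had a log2 fold change of -0.36 ± 0.38 (SE, adjusted p = 0.61, limma) and Nkx1-2 of 0.00 ± 0.19 (SE). The 9 genes without a line were 7 Hox genes, Cdx1 and Cdx4, and were not analysed here.

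**Figure D5:**
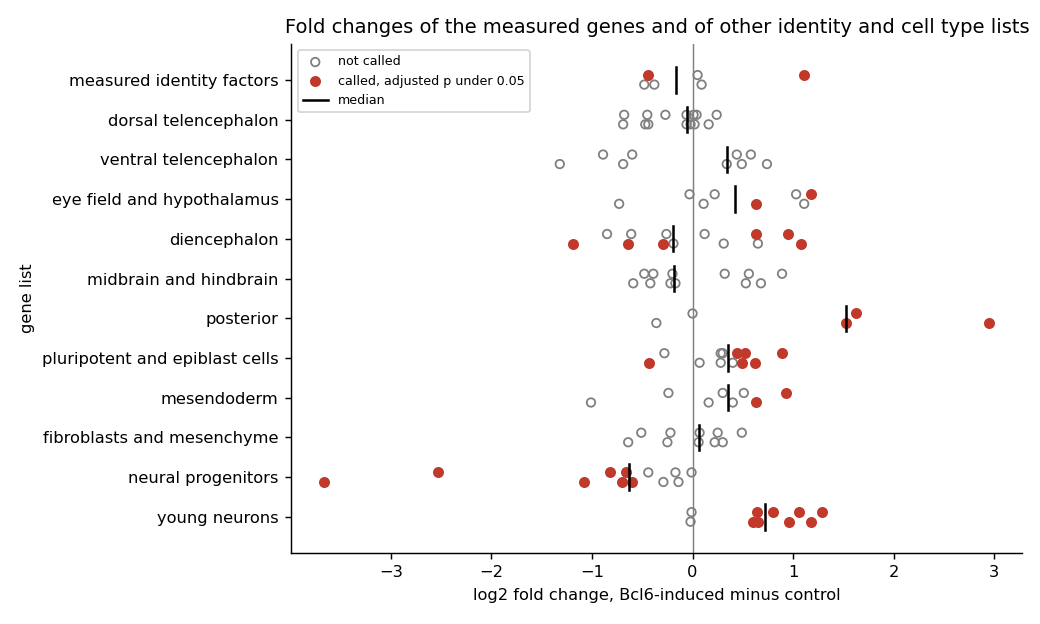
Log2 fold change (Bcl6-induced minus control, horizontal axis) of the 6 measured identity factors (top row) and of the genes of 11 other lists. Filled red points were called by limma at an adjusted p under 0.05, open points were not, and black bars are medians. The dorsal telencephalon, ventral telencephalon, midbrain and hindbrain, and fibroblast rows hold no called gene, and the young neuron row holds 8 called higher.

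Markers of other cell types were present in all libraries, and they bear on Otx2 and Lhx2 because both genes are also expressed outside cortical progenitors. All 12 genes of the pluripotent and epiblast list had a line, and their sum was 2208 to 2575 CPM in Bcl6-induced and 2289 to 2533 CPM in control libraries. Of these, 5 were called higher and 1 lower, with a median of 0.35. Nanog, a pluripotency factor, rose to 233 ± 7 CPM in Bcl6-induced, against 172 ± 13.1 CPM in control libraries (adjusted p = 0.0059, limma), and Zfp42, Esrrb, Klf4 and Lefty2 also rose. The calls of Zfp42 and Esrrb were lost without induced library 1 or 2 or control 2, which left 3 higher. The 1 that fell was Tdgf1, the list's highest gene and the nearest profile to Otx2, with 605 ± 38.6 CPM in Bcl6-induced and 815 ± 62.9 CPM in control libraries (adjusted p = 0.012, limma). Pou5f1, the other defining marker, had 443 ± 42.0 CPM in Bcl6-induced and 538 ± 65.7 CPM in control libraries and was not called (adjusted p = 0.13, limma). The part of such cells in the fall of Otx2 was not tested.

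Of the neural progenitor list, 7 of 12 genes were called lower and none higher, with a median of -0.63. They were Sox1, Sox3, Nes, Hes5, Fabp7, Slc1a3 and Prom1. The list summed to 1356, 1357, 1789 and 1796 CPM in Bcl6-induced libraries 1 to 4, against 2336, 2131, 1933 and 2158 CPM in control libraries 1 to 4. Induced libraries 1 and 2, the lowest for this sum, were also the lowest for Otx1 and Emx2, and the part of this difference in those genes was not tested. Fabp7, a fatty acid-binding protein gene of radial glia, had 46.9 ± 40.9 CPM in Bcl6-induced and 180 ± 28.1 CPM in control libraries (adjusted p = 0.036, limma). Sox2, a stem cell factor shared with pluripotent cells, had 255 ± 15.5 CPM in Bcl6-induced and 257 ± 22.3 CPM in control libraries and was not called, nor was Vim, the list's highest gene. Leaving out induced library 1 or control 2 left 2 of the 7 calls, Slc1a3 and Prom1.

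Of the young neuron list, 8 of 10 genes were called higher and none lower, with a median of 0.73, and all but Stmn2 and Ncam1 were among them. The list summed to 1423 to 1712 CPM in Bcl6-induced and 879 to 1046 CPM in control libraries. Tubb3, its highest gene, had 327 ± 42.1 CPM in Bcl6-induced and 170 ± 28.9 CPM in control libraries (log2 fold change 0.96 ± 0.13 SE, adjusted p = 0.0031, limma), and Cntn2, an axonal adhesion molecule gene, had 79.3 ± 5.42 CPM in Bcl6-induced and 32.5 ± 4.33 CPM in control libraries (adjusted p = 0.00017, limma). Dcx, Map2, Elavl3, Elavl4, Nhlh2 and Neurod1, genes of neuronal migration, cytoskeleton, RNA binding and transcription, made up the rest. The part of neurons in the rise of Lhx2 was not tested.

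Of the mesendoderm list, 8 of 10 genes had a line, 2 of them called higher (Eomes and Lhx1) and none lower, with a median of 0.35 and a sum of 116 to 130 CPM in Bcl6-induced and 81.8 to 106 CPM in control libraries. Lhx1 is also in the diencephalon list, so the same call is counted in both lists. Eomes, a T-box gene of the primitive streak that is also used in the cortex, rose to 24.9 ± 1.63 CPM in Bcl6-induced, against 13 ± 0.257 CPM in control libraries (adjusted p = 0.00051, limma), and kept its call in every setting, whereas that of Lhx1 was lost without induced library 1 or 3 or control 2 or 4. Foxa2 was the list's highest gene, at 21.7 ± 4.77 CPM in Bcl6-induced and 25.7 ± 5.56 CPM in control libraries. None of the 10 fibroblast and mesenchyme genes was called by limma. Of these, 5 had an unadjusted p under 0.05 (limma), in both directions, against 3547 of all 14954 genes. The 10 genes had a median of 0.06 and a sum of 616 to 758 CPM in Bcl6-induced and 570 to 730 CPM in control libraries. Col3a1, a collagen gene, was the highest of them, at 315 ± 27.6 CPM in Bcl6-induced and 265 ± 32.3 CPM in control libraries.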

How the data were processed

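The authors used the genome build mm10 and the tools STAR 2.5.3a, HTSeq 0.9.1 and edgeR 3.20.1, per the submitters' processing notes; the role of each is not given in the sources used here, nor is the strand setting of the counting. The library kit was stranded (TruSeq), per the labels' protocols. The 1 deposited table had 36 cells per line under 24 header names, because decimal commas had become column breaks, and all 14954 lines were rejoined. It held 0 columns of other samples. Its expression values, deposited by the authors, are treated as a score, being whole numbers already scaled to about 20 M per library. They lay on multiples of a step for at least 99.6% of genes in each library, which gave the read totals.

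Levels in CPM are values over their library totals. All 14954 genes entered 1 fit with limma 3.58.1 (R 4.3.3) of log2(value + 1), its variance trended on expression, with no covariate, and was tested on simulated data. The pseudocount of 1 makes fold changes on this log2(value + 1) scale understate the change of low genes. No gene was filtered out, since the lowest mean was 15.1 scaled reads. Coordinates and exon lengths are from GENCODE M21, and promoter windows from RefSeq.

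The 8 genes and the 11 lists were chosen with earlier results of these data known. The text names the 8 genes, Bcl6, the called genes and the highest gene of each list, and the 3 nearest profiles, among genes with a mean of at least 50 scaled reads, of each called member. Genes named beside them (Sox2 and Pou5f1 among them) were chosen after their values were seen. The highest genes of 2 lists are not reported here. The fixed plan named a count test for raw counts, which these scaled values do not allow. The alternatives were a pseudocount of 0.1 or 10, 2 other scalings, a minimum mean of 100 scaled reads, thinned reads, array weights, a replicate block and leaving out each library.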

Additional observations from a re-analysis of the deposited data

How the results depend on the processing

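Under every alternative run, 1 of the identity factors (Lhx2) was called higher and 1 (Otx2) lower, with Emx2 left out of the fit by the minimum mean of 100 scaled reads. Over all genes, 1019 were called with all 8 libraries. Leaving out 1 library gave 308 (without induced 1) to 1697 (without control 1) calls, with 350 without induced 2, 359 without control 2 and 649 without induced 3. Array weights gave 2507. Of the 112 list genes with a line, 33 were called. Leaving out 1 library gave 18 (without induced 1 or control 2) to 34 (without induced 4 or control 1), with 20 without induced 2, and array weights gave 50. Of all called genes, 66.8% were higher with the deposited scaling (681 higher, 338 lower), 55.8% with median-of-ratios scaling (536 higher, 424 lower) and 51.4% with upper quartile scaling (501 higher, 474 lower). The cause was not tested. Dmrta2 changed sign with upper quartile scaling (-0.0004) and ranged from -0.12 to 0.34 when 1 library was left out, Six3 from -0.02 to 0.24, Otx1 from -0.69 to -0.29 and Emx2 from -0.57 to -0.14. Of the lists with no call in the reported fit, all but the ventral telencephalon list gained some. The dorsal telencephalon list had 1 lower call with median-of-ratios scaling or without induced 4, 2 with upper quartile scaling and 4 with array weights. The midbrain and hindbrain list had 1 lower call with either scaling, 1 higher and 1 lower without induced 4, 1 higher without control 1, and 2 higher and 2 lower with array weights. The fibroblast list had 1 lower call with either scaling, the minimum mean, thinned reads, array weights or without control 3, and 1 higher without control 4.

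With the replicate number as a block, 827 genes were called (531 higher, 296 lower), and Lhx2 (adjusted p = 0.008) and Otx2 (adjusted p = 0.016, limma) were still called. The deviations of same-numbered libraries from their group means correlated at 0.03, 0.01, -0.03 and 0.37 over 11869 genes, so the numbers were not taken as pairs, and not every library correlated best with its own number. Fits with edgeR and DESeq2 count models were not run, since the deposited values are not raw counts. With reads thinned to the smallest library, Emx2 had a log2 fold change of -0.45 (adjusted p = 0.36, limma), against -0.38 (adjusted p = 0.4).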
